A study of Homo sapiens with 4 samples.

Results

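The ABCA subfamily of ATP-binding cassette genes codes for large lipid transporters, and the 9 members described here were ABCA1, ABCA4, ABCA5, ABCA6, ABCA8, ABCA9, ABCA10, ABCA12 and ABCA13. They were chosen by the presence of m7G peaks in the lists, so the fact that they carried peaks is a description and not a finding. A peak belonged to a member when it overlapped an exon of that gene on the same strand by at least 1 bp. By this rule the members held 24 of the 8070 peaks of HL60 and 17 of the 8122 peaks of HL60/MX2, or 41 peaks in all. The members were 9 of the 12 protein-coding ABCA genes, and the lists held no peak in the other 3, ABCA2, ABCA3 and ABCA7.

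HL60 (HL-60 in the labels) is an acute myeloid leukemia cell line of promyelocytic type, labelled wild type, and HL60/MX2 is a drug-resistant derivative of it that was selected with mitoxantrone. Both lines were grown in the same medium, and an m7G-enriched and an input library were made from the mRNA of each, 4 libraries in all. RNA was decapped before it was fragmented, so the enrichment was directed at m7G inside the mRNA. The values come from the 2 enriched libraries, and the input libraries were not used here. With 1 library per line no spread between cultures could be measured, no test between the lines was possible, and every interval below covers counting error only. The lists give a position, a strand and a score for each peak but no read counts, so the depth is unknown. The scale of the score is not stated, and scores were therefore read as percentiles within their own list. Many peaks in a list had exactly the same score: 70.8% of the members' peaks in HL60 and 70.6% in HL60/MX2 had a score that occurred at least 10 times in the list, against 48.3% and 47.3% of the whole lists.

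A full ABCA transporter is built from a pair of membrane-spanning domains, each followed by a nucleotide-binding domain that binds and splits ATP. The Walker A motif of each nucleotide-binding domain holds the phosphates of ATP. ABCA proteins are also known for large loops outside the cell or in the lumen of an organelle. ABCA1 loads cholesterol and phospholipid onto apolipoprotein A-I, ABCA4 moves retinoid lipids in photoreceptors, and ABCA12 fills the lipid granules of keratinocytes. ABCA13 is the largest protein of the subfamily, and ABCA5, ABCA6, ABCA8, ABCA9 and ABCA10 lie side by side on chromosome 17 at 17q24.

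The sequences below are those on which the comparison of the lines and of the paralogs turns, read from hg19 on the strand of the gene, 5′ to 3′, and each lies in the coding sequence. The first is exon 20 of ABCA12 (chr2:215868933-215869023, minus strand), the only stretch where the ABCA peaks of the lines overlapped. The second is exon 28 of ABCA12 (chr2:215851266-215851452, minus strand), an HL60 peak, in which the capitals mark the codons of the first Walker A motif. The next lines show exon 23 of ABCA6 (chr17:67094061-67094168, minus strand), a peak of HL60, and exon 23 of ABCA10 (chr17:67171547-67171654, minus strand), a peak of HL60/MX2, with the bases that differ between them in capitals.
ABCA12 exon 20: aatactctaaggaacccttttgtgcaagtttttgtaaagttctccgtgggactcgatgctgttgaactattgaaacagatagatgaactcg
ABCA12 exon 28: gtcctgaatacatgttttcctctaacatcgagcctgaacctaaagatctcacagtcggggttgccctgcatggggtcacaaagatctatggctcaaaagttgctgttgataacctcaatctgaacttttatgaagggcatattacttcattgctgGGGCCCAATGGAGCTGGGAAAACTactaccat
ABCA6 exon 23: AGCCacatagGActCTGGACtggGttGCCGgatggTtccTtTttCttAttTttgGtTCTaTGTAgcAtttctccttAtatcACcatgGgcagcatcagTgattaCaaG
ABCA10 exon 23: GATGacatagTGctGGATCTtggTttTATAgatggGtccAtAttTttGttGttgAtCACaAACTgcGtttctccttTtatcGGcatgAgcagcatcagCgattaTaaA

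The highest-ranking member peaks of HL60/MX2 and the coding peaks of ABCA1, which were listed for HL60/MX2 only, are shown next. Here the capitals mark the 5-base motifs searched on the strand of the gene, which were CTGGA or CTGGG and also CTGTA or CTGTG (named CUGKR together), and GGAAA or else GGAAG (named GGAAR). In exon 20 of ABCA1 a CTGGG and a GGAAA overlap. The peaks lie at chr17:66871822-66871874 (ABCA8), chr2:215882732-215882856 (ABCA12), chr9:107583656-107583771 and chr9:107555453-107555581 (ABCA1), all on the minus strand.
ABCA8 exon 36: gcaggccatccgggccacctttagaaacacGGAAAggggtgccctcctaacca
ABCA12 exon 14: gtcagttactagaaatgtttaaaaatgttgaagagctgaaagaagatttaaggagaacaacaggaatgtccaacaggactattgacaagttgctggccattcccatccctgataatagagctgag
ABCA1 exon 20: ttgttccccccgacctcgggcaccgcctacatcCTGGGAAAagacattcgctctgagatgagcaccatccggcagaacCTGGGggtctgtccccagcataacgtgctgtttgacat
ABCA1 exon 41: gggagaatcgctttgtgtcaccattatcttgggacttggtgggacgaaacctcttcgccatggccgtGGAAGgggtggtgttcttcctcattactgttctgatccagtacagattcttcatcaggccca

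Each list had peaks in 8 members, and 7 of them were found in both. ABCA6 had peaks in HL60 only and ABCA1 in HL60/MX2 only. Over all 20176 protein-coding genes, the HL60 list reached 27.0% and the HL60/MX2 list 29.5%. Both lists reached 12.2%, the HL60 list alone 14.7% and the HL60/MX2 list alone 17.2%. Genes with many exons more often had a peak, and the members had between 39 and 62 exons in their reference transcript. Among the 301 coding genes with as many exons, the lists reached 64.8% (HL60) and 63.1% (HL60/MX2). Since having a peak was part of the choice, nothing is read from the members' share.

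A single position was shared. In HL60 the peak over exon 20 of ABCA12 had a score of 456.32, at percentile 86.5 of its list, and in HL60/MX2 the peak over the same exon had a score of 107.69, at percentile 19.5. Both peaks covered the 91 bp of the exon from end to end, which codes for part of the long loop that precedes the first nucleotide-binding domain. Neither motif occurs in this exon, while 46.3% and 34.6% of the 654 HL60 peaks of like length (within 10%) held CUGKR and GGAAR. The shared position was 4.17% of the members' peaks in HL60 (0.105-21.1%, exact Clopper-Pearson 95% interval) and 5.88% in HL60/MX2 (0.149-28.7%). In the whole lists an overlap with the other line was found for 6.13% (HL60) and 6.09% (HL60/MX2) of peaks, values that both of these wide intervals held. Apart from this exon, the nearest pairs from different lines were 1 nt apart on the mRNA, across the junction of exons 48 and 49 in ABCA13 and of exons 2 and 3 in ABCA8, where the HL60 peak had only 3 bp on an exon. The others lay between 207 nt (ABCA4, exons 11 and 13) and 9519 nt (ABCA13) from the nearest peak of the other line in their gene.

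ABCA1, the cholesterol exporter, lies on chromosome 9 from 107543287 to 107690436 and has 50 exons. None of its exons had a peak in HL60. In HL60/MX2 it had 3 peaks, with scores of 476.26 in exon 20, 485.32 in exon 41 and 123.95 in the 3'UTR of exon 50. The first of these covered residues 949 to 987 and began 9 residues past the end of the first Walker A motif. The second covered residues 1836 to 1879, touched a hydrophobic stretch and ended 67 residues before the second Walker A motif. Both coding peaks ranked close to percentile 75 of the list (74.5 and 75.2), and the 3'UTR peak ranked at 24.1. Genes with at least 3 peaks in HL60/MX2 and none in HL60 made up 0.605% of all coding genes and 2.66% of those with 39 to 62 exons. This threshold was taken from the counts of ABCA1 itself, a gene chosen for having peaks, so nothing is read from how rare the pattern is. The exon shares of ABCA1 were 0% in HL60 (0-7.11%) and 6% in HL60/MX2 (1.25-16.5%), whose intervals overlapped.

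ABCA4, the closest member to ABCA1 with 52.3% of aligned residues identical, lies on chromosome 1 from 94458390 to 94586704 and also has 50 exons. Its 3 peaks in HL60 had scores of 549.21 in exon 13, 310.4 in exon 16 and 124.76 in exon 36, and its single HL60/MX2 peak in exon 11 had a score of 419.37. The peaks in exon 11 and exon 13 both lay in the loop of 601 residues between the first and second hydrophobic stretch, at residues 453 to 518 and 587 to 633. The peaks over exon 11 and exon 16 covered the whole exon. None of the 4 peaks came within 50 residues of a Walker A motif, and ABCA1 and ABCA4 shared no peak at an aligned position.

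ABCA12, the keratinocyte lipid transporter, lies on chromosome 2 from 215796266 to 216003349 and has 53 exons. It had 5 peaks in HL60, with scores of 95.89 in exon 7, 456.32 in exon 20, 218.66 in exon 28, 368.5 in exon 32 and 189.79 in exon 48. In HL60/MX2 it had 2, with scores of 1098.47 in exon 14 and 107.69 in exon 20. The HL60 peak over exon 28 was the only one of the 37 coding peaks that covered a Walker A motif, the stretch in capitals in its sequence. Of the other peaks, those in exons 7, 14 and 20 lay in the loop of 1012 residues at the start of the protein, and that in exon 32 lay between the Walker A motifs. The peaks in exons 32 and 48 were only 14 bp and 3 bp long, and each ended at an exon end. The peak in exon 14 had no CUGKR or GGAAR motif and stood at percentile 95.2 of the HL60/MX2 list.

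ABCA13, with 5058 residues and 62 exons, lies on chromosome 7 from 48211055 to 48687093 and had 5 peaks in each line. The HL60 peaks had scores of 343.24 in exon 2, 341.88 in exon 9, 78.34 in exon 20, 196.77 in exon 49 and 587.66 in exon 54. The HL60/MX2 peaks had scores of 568.9 in exon 26, 550.01 in exon 33, 274.89 in exon 38, 705.83 in exon 41 and 274.89 in exon 48. Along the mRNA, 3 HL60 peaks lay upstream of all HL60/MX2 peaks and the remaining 2 downstream of them. The HL60 peak in exon 54 ended 6 residues before the second Walker A motif. The HL60/MX2 peak in exon 48 and the HL60 peak in exon 49 met at residue 4431, in the longest stretch without a hydrophobic segment between the Walker A motifs. All 5 HL60/MX2 peaks ranked above the median of their list, from percentile 52.4 to 88.

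**Figure D1:**
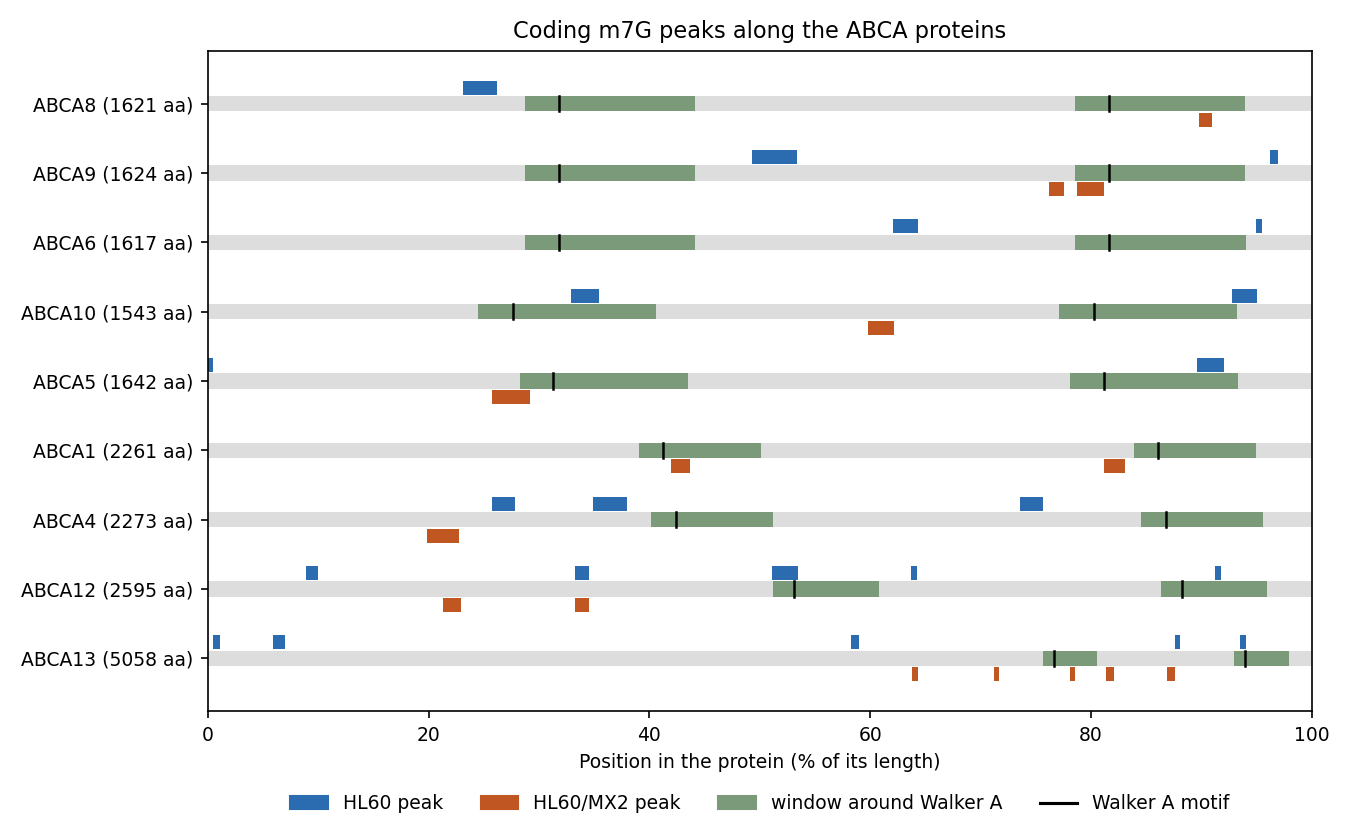
Coding peaks on the 9 ABCA proteins, with the position along the protein in percent of its length. Grey bars are the proteins, green the windows from 50 residues before to 200 after the start of each Walker A motif (black lines), blue bars above are HL60 peaks and orange bars below HL60/MX2 peaks, the shortest drawn at a minimum width. Blue and orange coincide in 1 place, in ABCA12, and 1 blue bar lies over a Walker A motif.

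Coding sequence was held by 22 of the members' peaks in HL60 and by 15 in HL60/MX2. The domain around each Walker A motif was taken as a window from 50 residues before to 200 residues after the start of the motif, and these windows made up 22.3% of the 20234 residues of the members. In HL60, 6 of the 22 peaks reached such a window (27.3%, 10.7-50.2%), 9 lay before the first window, 5 between the windows and 2 after the second. In HL60/MX2, 5 of 15 reached a window (33.3%, 11.8-61.6%), 5 lay before the first and 5 between them. A peak that only touched a window was counted, so these shares read somewhat above a share of residues, and their intervals held that value in both lines. A hydrophobic stretch was touched by 6 coding peaks in HL60 and by 2 in HL60/MX2.

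The genes of 17q24 are close paralogs of each other. ABCA6, ABCA8, ABCA9 and ABCA10 had between 59.1% and 72.3% of aligned residues identical, ABCA5 between 42.4% and 43.9% with these 4, and all other pairs of members between 26.1% and 52.3%. The 5 genes are transcribed from the same strand, in the order ABCA5, ABCA10, ABCA6, ABCA9 and ABCA8. The HL60 list had 11 peaks in them and the HL60/MX2 list 6, while the other 4 members had 13 and 11. Every gene of the cluster had a peak in HL60, and all but ABCA6 had one in HL60/MX2.

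In ABCA5, an endosomal and lysosomal transporter (chromosome 17, 67240452 to 67323385), the HL60 peaks had scores of 334.94 in exon 2, 502.17 in exon 35 and 85.12 in the 3'UTR of exon 39. Its HL60/MX2 peak in exon 10 had a score of 96.59. The peak at exon 2 was 264 bp long, of which 26 bp lay on the reference transcript and included the start codon, and the rest lay on longer exons of other transcripts of the gene. The exon 10 peak covered residues 423 to 479 and ended 35 residues before the first Walker A motif. Of its 39 exons 3 carried peaks in HL60, while 1 did in HL60/MX2, and the intervals (1.62-20.9% and 0.0649-13.5%) overlapped.

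ABCA6 (67074843 to 67138036) had an HL60 peak with a score of 71.97 over the whole of exon 23 and one of 371.57 in exon 36, which was 7 bp long. It had no peak in HL60/MX2, and 0 of 39 exons allowed a share of up to 9.03% (Clopper-Pearson). Of the coding genes with 39 to 62 exons, 12.6% had at least 2 peaks in HL60 and none in HL60/MX2. This threshold was taken from the counts of ABCA6 itself, a gene chosen for having peaks, so nothing is read from this share.

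ABCA8 (66863430 to 66951533) had HL60 peaks with scores of 286.43 near exon 3 and 334.94 over exon 10, and HL60/MX2 peaks with scores of 74.91 in exon 2 and 1285.83 in exon 36. The HL60/MX2 peak in exon 2 lay in the 5'UTR. The start codon is in exon 3, and of the 48 bp of the HL60 peak near exon 3 only 3 bp lay on an annotated exon of the gene, in the 5'UTR before that codon. The peak in exon 36 had the highest score of all 41 member peaks, at percentile 96.7 of the HL60/MX2 list, although it spanned only 53 bp of the 120 bp of the exon. It lay 127 residues past the second Walker A motif, at residues 1457 to 1475.

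ABCA9 (66970629 to 67057090) had HL60 peaks with scores of 172.26 over exon 19 and 226.14 in exon 37, and HL60/MX2 peaks with scores of 65.28 in exon 29 and 346.57 over exon 30. The exon 30 peak ended 7 residues before the second Walker A motif, at residue 1319. ABCA10 (67143355 to 67240987) had HL60 peaks with scores of 55.77 in exon 14 and 85.12 in exon 36, and an HL60/MX2 peak of 808.28 over the whole of exon 23. The exon 14 peak lay 75 residues past the first Walker A motif and had the lowest score of all 41 member peaks, at percentile 3.82. In both genes the lines had peaks in different exons.

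**Figure D2:**
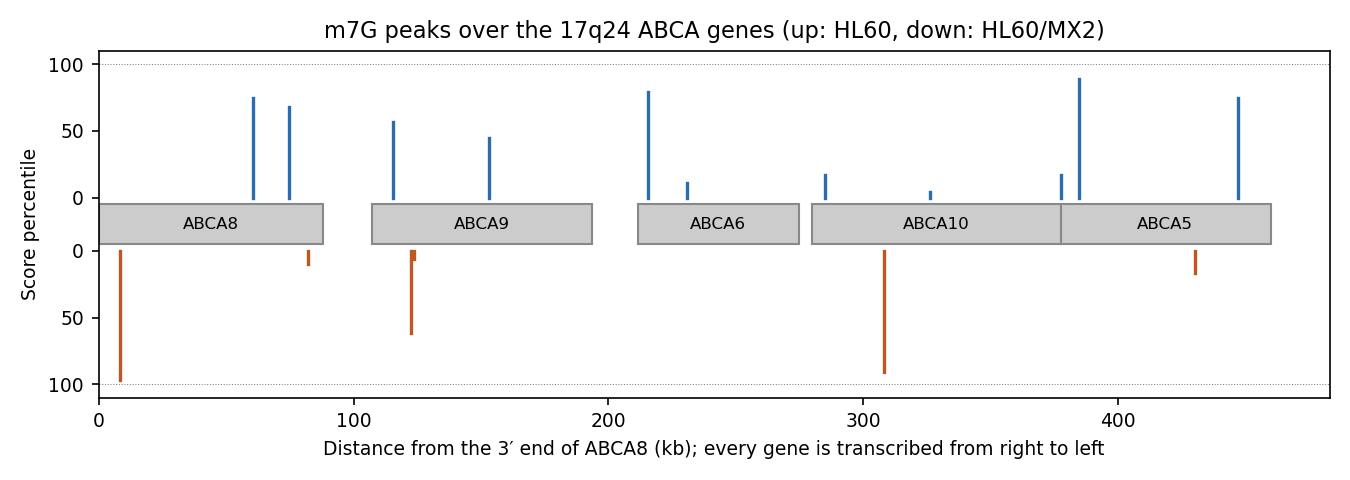
Peaks over the 17q24 ABCA genes, plotted by distance from the 3′ end of ABCA8 in kb, with the score percentile within the list as the height of each line (up, HL60; down, HL60/MX2). HL60 has 11 lines over all 5 genes and HL60/MX2 has 6 over 4 genes, none at the same position.

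Relative to 55.99 kb of merged exon, the 17q24 genes carried 0.196 peaks per kb in HL60 (0.0981-0.352, exact Poisson 95% interval) and 0.107 in HL60/MX2 (0.0393-0.233). The other 4 members, with 48.58 kb, carried 0.268 (0.142-0.458) and 0.226 (0.113-0.405). The intervals of the clustered genes and the others overlapped in both lines. In HL60 the order of these rates depended on the length used: over the exons of the reference transcripts alone the clustered genes had 0.344 peaks per kb and the others 0.294, and in HL60/MX2 0.188 and 0.249. Counted by exon, 11 of the 196 exons of the clustered genes (5.61%, 2.83-9.82%) and 13 of the 215 of the others (6.05%, 3.26-10.1%) had a peak in HL60. In HL60/MX2 the shares were 3.06% (1.13-6.54%) and 5.12% (2.58-8.97%). Among all 206509 reference exons of coding genes, the shares were 3.14% (HL60) and 3.23% (HL60/MX2). The members were chosen for having peaks, so the count was repeated over all 12 coding ABCA genes, and of their 540 exons 4.44% (2.87-6.54%) carried one in HL60 and 3.15% (1.84-4.99%) in HL60/MX2, intervals that held the value of all exons in both lines.

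**Figure D3:**
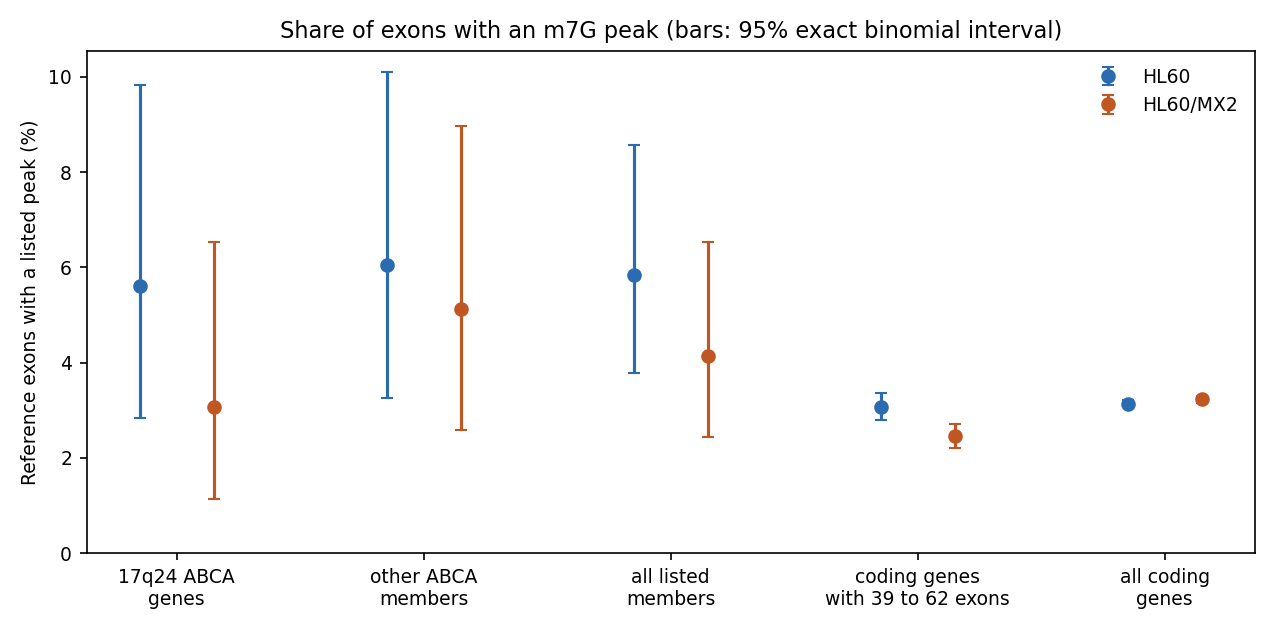
Share of reference exons with a listed peak, in percent, with 95% exact binomial intervals. The 17q24 genes (5.61% and 3.06%) and the other members (6.05% and 5.12%) have intervals that overlap in both lines, and all coding genes lie at 3.14% and 3.23%.

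Several peaks of different members lay at aligned positions of their proteins. Among the 37 coding peaks, 9 pairs of peaks in different genes shared at least 10 aligned residues, 3 within a line and 6 between the lines, and 2 of the pairs were within 17q24. The pairs are not all separate positions. The HL60/MX2 peak in exon 11 of ABCA4 shared 28 residues with exon 20 of ABCA12, which had a peak in each line, so this position counts as 2 pairs. Exon 23 of ABCA6 in HL60 and exon 23 of ABCA10 in HL60/MX2 were whole-exon peaks over the same 36 aligned residues, and their 108 bp differed at 39 bases (63.9% identical), as the capitals in their sequences show. The HL60 peak in exon 36 of ABCA4 shared 29 aligned residues with both of these. Past the second Walker A motif, the HL60 peak over exon 35 of ABCA5 and the HL60/MX2 peak in exon 36 of ABCA8 shared 19 residues. In HL60, exon 16 of ABCA4 and exon 10 of ABCA8 shared 50 residues, at 100 and 91 residues before the first Walker A motif. How many such pairs independent peaks would give was not tested.

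Sequence copies limited how surely some peaks could be placed. The peaks of at least 30 bp were compared with all of hg19, and 3 had a copy with at least 90% identity over at least 50% of their length. The HL60/MX2 peak in exon 2 of ABCA8 matched 436 other places and so lies in repeated sequence. The ABCA10 peak in exon 36 of HL60 was 98.1% identical over its 103 bp to chromosome 4 from 419787 to 419889, and the ABCA10 peak in exon 23 of HL60/MX2 was 94.4% identical to chromosome 4 from 421290 to 421397. Both places lie in ABCA11P, a transcribed pseudogene, and within the span of the coding gene ZNF721. Neither list had a peak there. The lists were selected for exons of coding transcripts, so this absence does not show whether reads came from the pseudogene. The exon 36 peak is shown here with the bases that differ from the copy in capitals (chr17:67148184-67148286, minus strand). Reads from ABCA10 and ABCA11P are hard to tell apart at such identity, and the origin of these peaks was not tested.
ABCA10 exon 36: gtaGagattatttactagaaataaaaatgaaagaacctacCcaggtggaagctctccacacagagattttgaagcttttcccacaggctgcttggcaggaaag

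Between the paralogs of 17q24 the copies were less alike. The ABCA8 peak in exon 36 was 88.7% identical over its 53 bp to ABCA9, and the ABCA10 peak in exon 14 was 84.3% identical over 102 bp to the same gene. No copy was found for any of the ABCA13 peaks searched, which were 8 of 10. Without the 3 peaks with a near copy, 23 member peaks stayed in HL60 and 15 in HL60/MX2, where ABCA10 then had none, and its HL60 peak in exon 14 was kept.

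Many member peaks coincided with exon boundaries. Of the 24 member peaks in HL60, 21 started or stopped at the boundary of an exon (87.5%, 67.6-97.3%), as did 16 of the 17 in HL60/MX2 (94.1%, 71.3-99.9%), against 67.7% and 68.7% of the whole lists. Whole exons were covered by 11 HL60 peaks (45.8%, 25.6-67.2%) and 6 HL60/MX2 peaks (35.3%, 14.2-61.7%), against 22.5% and 20% of the lists. The interval lay above the value of the whole list for whole exons in HL60 and for peak ends in HL60/MX2, and held it for the other 2 shares (67.7% and 20%). Every member peak had to overlap a coding gene's exon, whereas in the lists 7740 of 8070 (HL60) and 7804 of 8122 (HL60/MX2) did. The lists also cover genes of any exon number. The shares were not computed for genes with 39 to 62 exons, so nothing particular to the members is read from these differences. The members' exons had a median length of 134 bp, close to the 133 bp of all coding genes. Only 2 peaks, in ABCA1 and ABCA5, lay in a 3'UTR. The median length of a member peak was 111.5 bp in HL60 and 114 bp in HL60/MX2, against 129 bp and 133 bp in the lists.

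**Figure D4:**
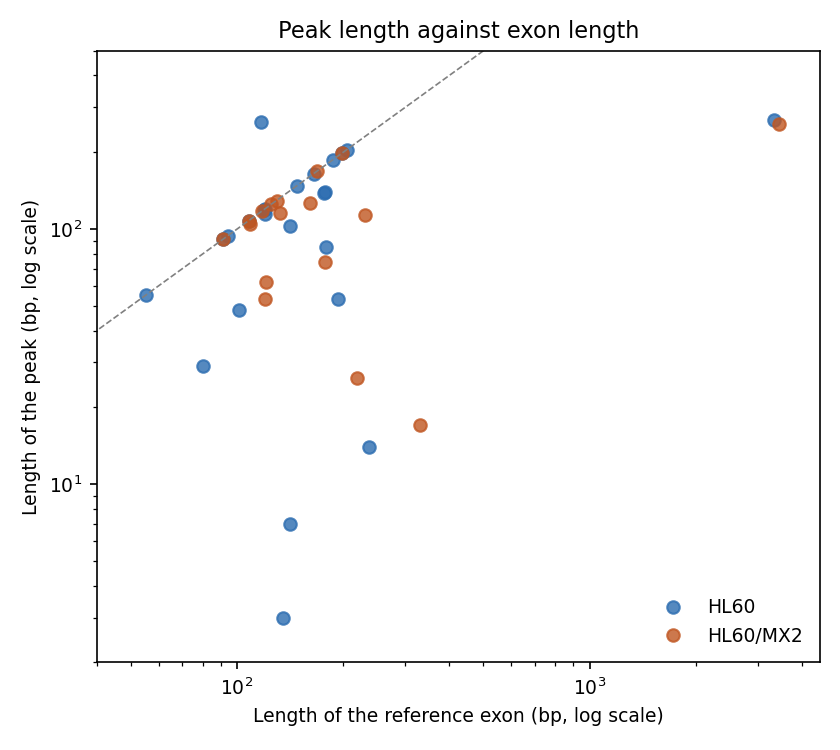
Length of each member peak against the length of the reference exon it overlaps most, both in bp on log scales. On the dashed line the peak is as long as the exon, where 11 HL60 and 6 HL60/MX2 peaks cover a whole exon, and the points at the far right are the 3'UTR peaks of ABCA5 and ABCA1.

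The scores of the members ranked from percentile 3.82 to 92.6 in HL60 and from 6.11 to 96.7 in HL60/MX2. In HL60 they ran from 55.77 to 587.66 with a median of 256.285 and a median percentile of 62.5, and in HL60/MX2 from 65.28 to 1285.83 with a median of 419.37 and a median percentile of 68.9. The 17q24 genes had median percentiles of 56.9 (HL60, 11 peaks) and 38.9 (HL60/MX2, 6 peaks), against 71.5 (13 peaks) and 74.5 (11 peaks) for the other members. The 6 values behind the 38.9 were split, at 6.11, 9.38, 16.2, 61.6, 91 and 96.7. Those at 9.38 (ABCA8, exon 2) and 91 (ABCA10, exon 23) belonged to peaks with a near copy elsewhere. These differences were not tested. In HL60/MX2 the clustered genes held both the highest score, in ABCA8, and the lowest, in ABCA9. CUGKR was present in 11 of 23 member peaks of at least 5 nt in HL60 (47.8%) and 6 of 17 in HL60/MX2 (35.3%), against 56.7% and 57.8% of the lists. GGAAR was present in 30.4% and 41.2%, against 44.5% and 43.6%. With either strand searched, CUGKR was present in 17 (73.9%) and 10 (58.8%) member peaks, against 75.2% and 76.7% of the lists, and GGAAR in 13 (56.5%) and 11 (64.7%), against 60.6% and 60.5%. These shares were not matched for peak length, and the member peaks had a lower median length than the lists, so nothing is read from the differences.

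**Figure D5:**
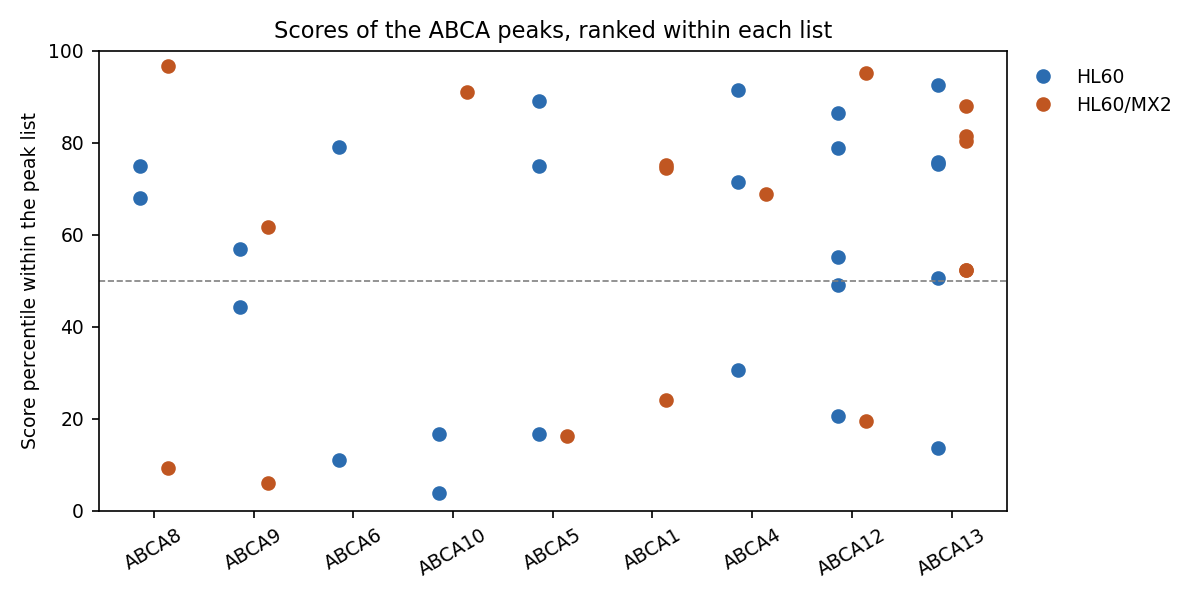
Score of each member peak as a percentile within its own list, by gene, with a dashed line at the median of the list. ABCA8, ABCA12 and ABCA10 hold the highest points of HL60/MX2 (96.7, 95.2 and 91), while the 2 HL60 points of ABCA10 lie at 16.7 and 3.82.

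The coding ABCA genes without a peak differed from the members in base composition. ABCA2, ABCA3 and ABCA7 had an exon GC content of 64.8%, 60.1% and 62.6%, while the members ranged from 35.3% in ABCA5 to 52.6% in ABCA4. Among coding genes with 33 to 62 exons, the range of the 12 genes, 55.9% of the 59 with an exon GC content of at least 60% had no peak in either list, against 16.4% of the 489 others. The part of base composition in the peaks was not tested.

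Genes around the members in function and position were set beside them. Of 20 genes of cholesterol efflux and lipoprotein handling, 2 were in the HL60 list and 7 in the HL60/MX2 list, beside 27.0% and 29.5% of all coding genes. NPC1, which exports cholesterol from lysosomes, had a peak in each line, in different exons. Of all coding genes, 17.2% had peaks in HL60/MX2 only, among them MYLIP, NR1H3, SREBF2, PLTP and LPL. Their scores ranked at percentile 6.86 (PLTP), 10.4 (SREBF2), 31.6 (MYLIP) and 80.8 (NR1H3) of that list, and at 53.4 and 89.3 for LPL. Neither APOA1, which accepts lipid from ABCA1, nor ABCG1, which also exports cholesterol, had a peak in either line. NR1H3 codes for a liver X receptor that drives transcription of ABCA1, and its peak lay on an exon outside the reference transcript. Of 8 coding genes that flank the ABCA genes at 17q24, SLC16A6 had 1 peak in HL60 and WIPI1 had 1 in HL60/MX2. The shares of all coding genes were the 27.0% and 29.5% given above, and nothing is read from so short a list.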

How the data were processed

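The authors trimmed the reads with Cutadapt (1.9.3), aligned them to hg19 with Hisat2 (2.0.4), called peaks with MACS and selected those on the exons of coding transcripts. The version and settings of MACS are not given in the sources used here. The deposited value of each peak is a score with a minimum of 50 and no stated scale. Positions were converted to starts counted from 1, and chromosome 1 of the reference had the length of hg19 (249250621 bp). Exons came from GENCODE release 44 on that build, and exon numbers from the MANE Select transcript. Coding sequences were translated, Walker A was searched as G-x-x-G-x-G-K-[S or T], hydrophobic stretches were windows of 19 residues with a mean Kyte-Doolittle value of at least 1.6, and proteins were aligned with mafft 7.526. The ABC signature was searched too but is not reported, since the pattern missed the second domain of every member and the first of ABCA6 and ABCA13. Copies were searched with BLAST 2.17.0 (E at most 0.001). Python 3.11.15, numpy 2.4.6, scipy 1.17.1, biopython 1.88 and matplotlib 3.10.9 were used. Gene assignment and placement on transcripts were tested on simulated data.

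The input libraries were not analysed here. All members and every peak of theirs are named, and the other lists are the remaining ABCA genes, 20 genes of cholesterol handling, of which 1 with peaks is counted but not reported here by name, and 8 neighbours at 17q24. The members and lists were chosen with earlier results of these data known. Comparisons between lines are counts without a test. Alternatives were tried for the exons, the overlap, the strand, the score, the peak length and the exon ends.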

Additional observations from a re-analysis of the deposited data

Results flagged for a closer look

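The peaks are named by numbers that increase with position, and many of these numbers are missing from the lists. Between the first and the last 17q24 ABCA peak, 139 numbers in HL60 had no listed peak, over 386.5 kb, and 131 in HL60/MX2, over 421.5 kb. If every number stood for a called region, including regions off exons, this would be 385.5 and 322.6 regions per Mb, against 304.5 and 252.1 per Mb of the whole genome. That reading has no source in the files. The stretch was set by listed peaks at both ends while the genome rate was not, so nothing is read from the difference. These regions were not analysed here, the input libraries give no control level beside them, and the values were noticed only after the lists had been seen.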

How the results depend on the processing

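Of 31 alternatives to 11 results, 29 stayed within 1.5 times of a count or inside the interval of a rate or share. With only peaks at or above the median score of their list, the ABCA peaks in HL60 fell from 24 to 15 (those in HL60/MX2 from 17 to 12), and 0 positions were shared between the lines in place of 1, because the HL60/MX2 peak over exon 20 of ABCA12 was below the median. The exons of the reference transcript raised the 17q24 rates from 0.196 to 0.344 and from 0.107 to 0.188 peaks per kb, by shortening the exon length, and the score threshold lowered them to 0.107 and 0.0536. Leaving out peaks with a near copy, chosen after seeing the data, gave 0.179 and 0.0714. Without read counts, the precision of a single peak is unknown. No paired analysis was possible because each line had 1 enriched library.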
